A study of Mus musculus with 3 samples.

Results

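A group of 10 genes of the immediate early response was followed in mouse livers that had a sham operation (Sham), warm ischemia (WI), or warm ischemia with later reperfusion (IR). These genes are Fos, Fosb, Fosl2, Jun, Junb, Jund, Atf3, Egr1, Ier2 and Ier3, taken by gene symbol as 10 of the 23361 genes in the deposited tables. All 10 symbols were found, each in 1 row, and all 10 passed the filter, an FPKM that reached 1 in some library. FPKM is the number of sequenced fragments scaled by transcript length and by library size, so levels of different genes can be set side by side. The livers came from male C57BL/6J mice aged 8 to 10 weeks according to the labels, with no transgene or knockout in any group. The Sham group had a laparotomy with no clamp and was sampled after 90 min, the WI group had 90 min of clamping of the vessels to the left and median lobes, and the IR group had the same 90 min of clamping and then 2 h of reperfusion. Fasting and chloral hydrate anesthesia were shared by all groups. The study used 6 mice in each group, and pooling of their RNA for sequencing is not given in the sources used here.

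Immediate early genes are switched on within minutes of a stimulus by transcription factors that already sit in the cell, with no need for new protein, and many of their mRNAs are short-lived. FOS and JUN proteins pair through leucine zippers to form AP-1, a dimer that binds DNA. FOS proteins need a JUN partner, whereas JUN proteins can also pair with each other. ATF3 is a bZIP factor of the ATF/CREB family that can pair with JUN proteins, EGR1 is a zinc finger factor, and IER2 and IER3 are small response proteins. In liver this group is best known from partial hepatectomy and from injury, where its mRNAs are among the early ones to appear.

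Each group is 1 library, so there were no replicates and no test of a difference between conditions was possible. The deposited tables give 95% bounds for each FPKM, which come from the Cuffdiff model. With 1 library per group, they hold no measured variation between mice of a group. A difference is described by the FPKM ratio with a 95% interval derived from those bounds, by whether the bounds of both libraries were apart, and by whether FPKM + 1 differed at least 2-fold. No sham library matches the IR library in time after surgery, so reperfusion and the added 2 h cannot be told apart. The libraries also differed from their common label of male. Xist, transcribed from an inactive X chromosome, had an FPKM of 18.9 in Sham, 20.1 in WI and 1.29 in IR. The Y-linked genes Ddx3y, Eif2s3y, Kdm5d and Uty were all below 0.1 in Sham and WI, and lay between 0.669 and 13.2 in IR. Comparisons with the IR library therefore cannot be told apart from this difference in sex-linked expression, which the comparison of WI with Sham does not carry. The value of a single fragment, read from genes whose bounds are those of 1 fragment, was 0.901 times as large in WI as in Sham (110 genes) and 1.26 times as large in IR as in Sham (116 genes). The library size used in scaling FPKM was thus 1.11 times that of Sham in WI and 0.795 times in IR. This is a property of the scaling and need not equal the sequencing depth. With transcript lengths of an older annotation, the member values rested on roughly 51.0 fragments (Ier3 in Sham) to 7444 fragments (Jun in IR).

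In the 4 members whose bounds were apart between IR and Sham, the sequence before the transcription start is shown so that the start of each gene can be seen beside its response. The stretches come from RefSeq (GRCm38.p6, the assembly also named mm10), end 1 base before the RefSeq start and are written 5′ to 3′ on the strand of the gene. Capitals mark matches, on either strand, to the NF-kB site, the short cAMP response element TGACG and the TATA box TATAAA. The stretch of Fos is chr12:85473670-85473889 on the plus strand, that of Junb chr8:84978749-84978898 on the minus strand, that of Atf3 chr1:191183334-191183483 on the minus strand and that of Ier3 chr17:35821563-35821712 on the plus strand.
Fos: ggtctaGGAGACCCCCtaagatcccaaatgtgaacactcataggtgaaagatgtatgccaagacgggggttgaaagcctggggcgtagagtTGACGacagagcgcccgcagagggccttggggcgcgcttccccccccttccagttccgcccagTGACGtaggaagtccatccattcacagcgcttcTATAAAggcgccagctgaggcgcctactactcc
Junb: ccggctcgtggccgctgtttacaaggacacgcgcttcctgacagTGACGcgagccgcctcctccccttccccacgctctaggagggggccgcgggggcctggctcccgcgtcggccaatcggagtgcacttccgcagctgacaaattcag
Atf3: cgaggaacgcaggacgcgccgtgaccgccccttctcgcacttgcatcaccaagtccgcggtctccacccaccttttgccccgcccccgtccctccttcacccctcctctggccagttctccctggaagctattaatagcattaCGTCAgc
Ier3: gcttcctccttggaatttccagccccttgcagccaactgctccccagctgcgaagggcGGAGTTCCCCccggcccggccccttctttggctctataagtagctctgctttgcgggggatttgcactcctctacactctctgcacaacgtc

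RefSeq promoter windows were found for 8 of the 10 members, the exceptions being Egr1 and Ier2. Over the 250 bases before the start, the NF-kB site was found in 4 of these 8 windows (Fos, Fosb, Fosl2 and Ier3) against 7.25% of 32851 windows of the same length. The short element TGACG was found in Fos, Fosb, Junb and Atf3 and in 17.8% of all windows. TATAAA was found in Fos and in 12.4% of all windows. These last searches were added after the windows had been seen, because the full cAMP response element TGACGTCA, which contains TGACG, was found in 0 of the 8 windows and in 1.55% of all. The EGR site GCGNGGGCG was found in Fosb and Fosl2 and in 4.70% of all windows. The AP-1 site TGANTCA, the CArG box and the STAT site TTCNNNGAA were found in 0 of the 8 windows and in 6.75%, 1.47% and 7.02% of all windows in that order. A match says only that these letters are in the window. An absence says nothing about sequence beyond the 250 bases, or about Egr1 and Ier2, which had no window.

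The 10 genes covered a wide range of levels in every library. In Sham the order ran from Jun (FPKM 71.7) and Egr1 (60.2) over Jund, Ier2 and Junb to Atf3, Fos, Fosl2, Fosb and Ier3 (1.68). Of the 9 pairs of neighbours in that order, only Junb and Atf3 had bounds that were apart. In WI the highest level was that of Egr1 (64.9) and the lowest that of Fosb (1.98), and only Fos and Atf3 were neighbours with bounds apart. In IR the order was led by Junb (189), Jund (118), Atf3 (114) and Jun (111), and ended with Fosl2 (7.38) and Fosb (2.999). There all 9 pairs of neighbours had overlapping bounds. Summed over the 10 genes, FPKM was 254 in Sham, 254 in WI and 755 in IR.

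**Figure D1:**
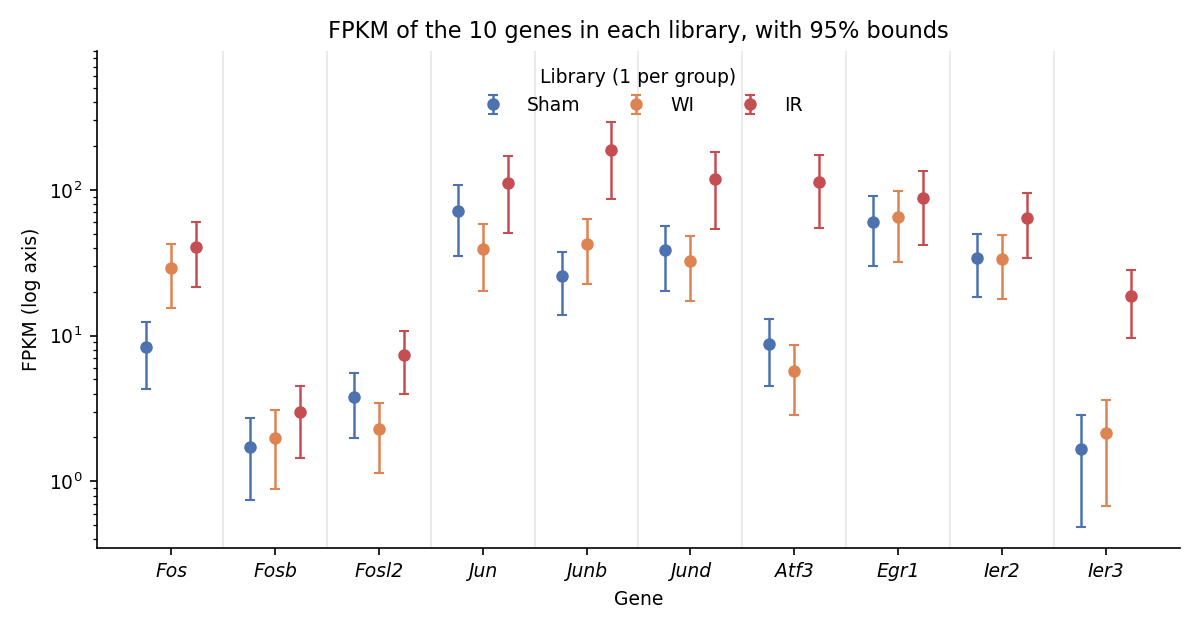
FPKM (log axis) of each gene in the Sham, WI and IR libraries, 1 library per group, with points at the FPKM and bars for the deposited 95% bounds. In IR, Junb, Atf3 and Ier3 lie above both other libraries with bounds apart, while for Fos the Sham library lies below both others.

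Among the FOS genes, Fos stood apart because its higher level was already present at the end of ischemia. Fos encodes c-Fos, the inducible partner of JUN proteins, and lies on chromosome 12 of mm10 from 85473901 to 85477270. Its FPKM was 8.31 in Sham (95% bounds 4.28 to 12.3), 28.9 in WI (15.5 to 42.4) and 40.6 in IR (21.4 to 59.8). The Sham value lay below both other values with bounds apart, and the WI and IR bounds overlapped over most of their width. The WI level was 3.48 times the Sham level (95% interval 1.80 to 6.73), and by the change of FPKM + 1 Fos ranked 15 among the 10792 genes that passed the filter. From WI to IR the ratio was 1.40 (0.733 to 2.69), an interval that holds 1, and with the FPKM of each library rescaled to a common sum over all genes the direction flipped (-0.06 on the log2 scale of FPKM + 1). On that scale the median of all genes was -0.45. Against Sham, the IR level was 4.89 times as high (2.52 to 9.48).

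Fosb and Fosl2 did not share the pattern of Fos. Fosb encodes an inducible relative of c-Fos and lies on chromosome 7 from 19302696 to 19310045. Its FPKM was 1.73 in Sham (0.747 to 2.72), 1.98 in WI (0.885 to 3.07) and 2.999 in IR (1.45 to 4.55), with overlapping bounds throughout. The IR to Sham ratio of Fosb was 1.73 (0.815 to 3.67). Fosl2, which encodes FRA2, lies on chromosome 5 from 32136472 to 32157839. Its FPKM was 3.77 in Sham (1.98 to 5.55), 2.28 in WI (1.13 to 3.42) and 7.38 in IR (3.96 to 10.8). The WI library was the lowest and its bounds were apart from those of IR, with an IR to WI ratio of 3.24 (1.66 to 6.32). The WI to Sham ratio of Fosl2 was 0.605 (0.307 to 1.19), an interval that holds 1.

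The JUN genes, whose proteins form AP-1 with FOS proteins or with one another, had their highest levels in IR. Junb lies on chromosome 8 from 84976909 to 84978748. Its levels were 25.7 FPKM in Sham (13.8 to 37.6), 42.8 in WI (22.7 to 62.8) and 189 in IR (86.7 to 291). The IR bounds were apart from those of both other libraries, which overlapped each other. Its IR to WI ratio was 4.42 (2.19 to 8.90) and its IR to Sham ratio 7.35 (3.66 to 14.8). Jund, known as the JUN gene with the steadiest expression in unstimulated cells, lies on chromosome 8 from 70697739 to 70700616. Its FPKM was 38.5 in Sham (20.2 to 56.8), 32.6 in WI (17.2 to 48.0) and 118 in IR (54.2 to 182). The IR bounds of Jund were apart from those of WI, with a ratio of 3.62 (1.79 to 7.32), and narrowly overlapped those of Sham, with a ratio of 3.07 (1.51 to 6.21).

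Jun, the gene of c-Jun, was the member with the lowest WI level relative to Sham. It lies on chromosome 4 from 95049036 to 95052222, and its FPKM was 71.7 in Sham (35.2 to 108), 39.1 in WI (20.3 to 57.9) and 111 in IR (50.7 to 171). The bounds of all 3 libraries overlapped. The WI to Sham ratio of Jun was 0.545 (0.275 to 1.08), and by the change of FPKM + 1 it ranked 188 from the lower end among 10792 genes. From WI to IR the ratio was 2.84 (1.39 to 5.78), while the IR to Sham ratio was 1.55 (0.746 to 3.21), an interval that holds 1.

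By FPKM values alone, the makeup of both families differed between libraries, and the shares and the ratio of sums below have no bounds. Summed FPKM of the 3 FOS genes was 13.8 in Sham (95% bounds of the sum 9.29 to 18.3), 33.2 in WI (19.6 to 46.8) and 51.0 in IR (31.5 to 70.5). Fos itself held 60.2% of the FOS sum in Sham, 87.2% in WI and 79.6% in IR. Summed FPKM of the 3 JUN genes was 136 in Sham (93.4 to 178), 114 in WI (83.0 to 146) and 418 in IR (283 to 552). The FOS sum was thus higher from WI on, and the JUN sum in IR alone. Within the JUN sum, the share of Jun was 52.8% in Sham, 34.1% in WI and 26.5% in IR, and that of Junb was 18.9%, 37.4% and 45.2% in the same order. The WI to Sham intervals of the FPKM ratio hold 1 for both Jun (0.275 to 1.08) and Junb (0.874 to 3.17). Jund held between 28.3% and 28.5% in the 3 libraries. The ratio of the JUN sum to the FOS sum was 9.84 in Sham, 3.45 in WI and 8.20 in IR. These are ratios of mRNA levels per transcript length, and protein was not measured.

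**Figure D2:**
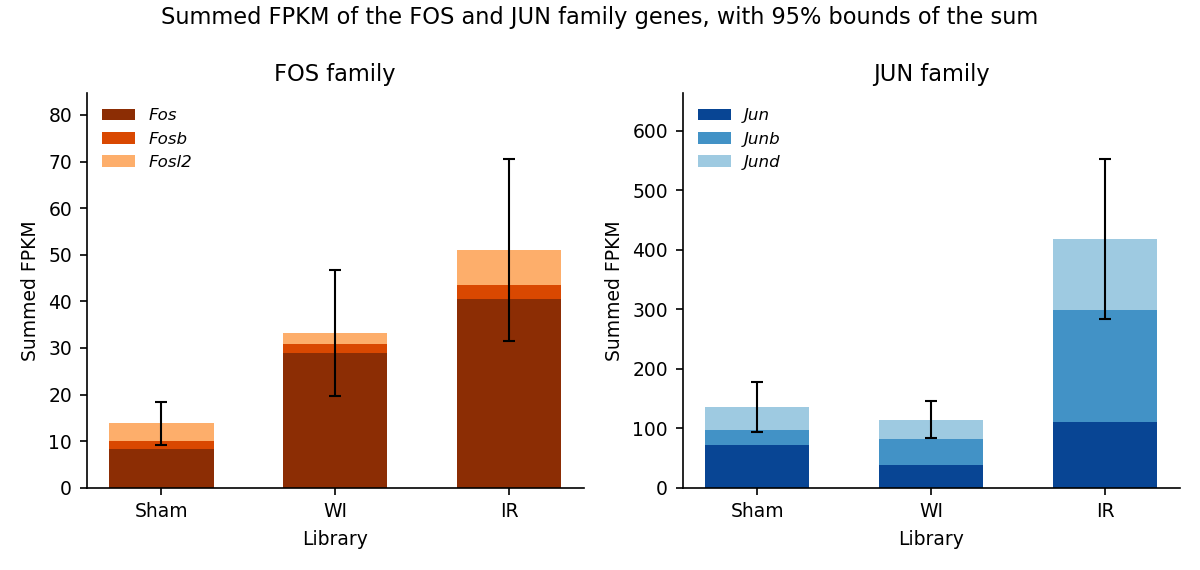
Summed FPKM of the FOS genes (left) and the JUN genes (right) in each library, stacked by gene, with bars for the 95% bounds of the sum. The FOS sum is 13.8 in Sham and 33.2 in WI, and the JUN sum is 114 in WI and 418 in IR.

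From WI to IR and from Sham to IR, Atf3 had the largest FPKM ratio of the 10 genes. It encodes a stress-inducible bZIP factor that often acts as a repressor, and lies on chromosome 1 from 191170297 to 191183333. Its FPKM was 8.72 in Sham (4.53 to 12.9), 5.76 in WI (2.85 to 8.67) and 114 in IR (54.8 to 173). The IR value lay far above both other values, whose bounds overlapped each other. The IR to WI ratio of Atf3 was 19.8 (9.72 to 40.3), the IR to Sham ratio was 13.1 (6.53 to 26.2), and the WI to Sham ratio was 0.661 (0.333 to 1.31). By the change of FPKM + 1 from WI to IR it ranked 33 among 10792 genes.

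Ier3 was also highest in IR, at a lower level than Atf3. It encodes IEX-1, a regulator of cell survival, and lies on chromosome 17 from 35821713 to 35822911, at 446 bases from Flot1. Its FPKM was 1.68 in Sham (0.485 to 2.87), 2.14 in WI (0.682 to 3.59) and 18.8 in IR (9.67 to 28.0). The IR bounds were apart from both others. The IR to WI ratio of Ier3 was 8.82 (3.88 to 20.0), and the IR to Sham ratio was 11.2 (4.82 to 26.1). The neighbour Flot1 had an FPKM of 9.89, 13.3 and 17.3 in Sham, WI and IR.

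Egr1 and Ier2 were among the members with high levels in Sham and had overlapping bounds in every pair of libraries. Egr1 lies on chromosome 18 from 34861207 to 34864956. Its levels were 60.2 FPKM in Sham (30.2 to 90.2), 64.9 in WI (32.2 to 97.6) and 88.6 in IR (42.1 to 135). Its WI to Sham ratio was 1.08 (0.539 to 2.16). Its IR to Sham ratio was 1.47 (0.725 to 2.99), and with a common sum per library the direction flipped (-0.02 on the log2 scale of FPKM + 1, and -0.10 against WI). On that scale the median of all genes was -0.45 in both comparisons. Ier2 lies on chromosome 8 from 84661331 to 84662852, and its levels were 34.2 FPKM in Sham (18.4 to 50.1), 33.4 in WI (18.0 to 48.9) and 64.5 in IR (34.0 to 95.1). Its WI to Sham ratio was 0.977 (0.514 to 1.86) and its IR to WI ratio 1.93 (1.01 to 3.69).

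**Figure D3:**
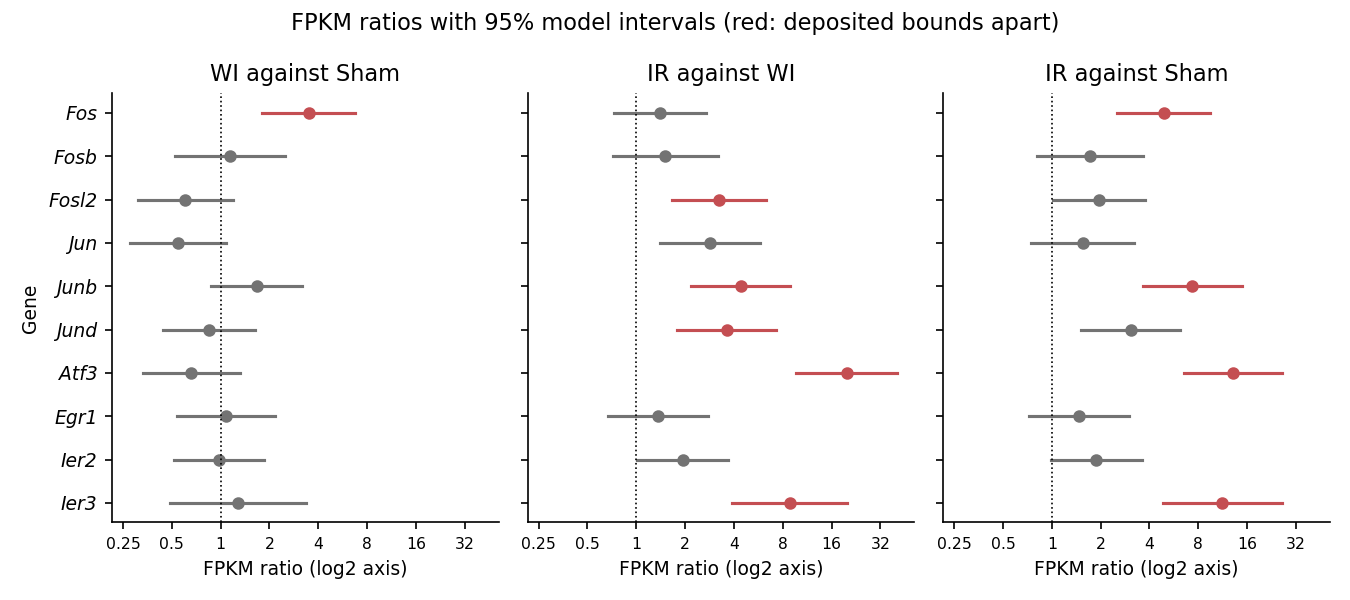
FPKM ratio (log2 axis) of each gene for WI against Sham, IR against WI and IR against Sham, with points at the ratio, lines for the 95% model interval and red where the deposited bounds were apart. Fos alone is red at WI against Sham, and Fosl2, Junb, Jund, Atf3 and Ier3 are red at IR against WI.

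Counted together, WI against Sham had 1 of the 10 genes (Fos) with FPKM + 1 at least 2-fold higher, where 0.751% of all 10792 genes passed, and 0 of 10 at least 2-fold lower, where 1.10% passed. Bounds were apart and higher in WI for the same gene (background 0.195%) and apart and lower for 0 of 10 (background 0.482%). The median change of the 10 genes was 0.04 on the log2 scale of FPKM + 1, beside 0.02 for all genes. Above 0 were 5 of the 10 genes, and 5671 of all 10792 genes. Members thus lay on both sides of 0, ranging from -0.86 (Jun) to 1.69 (Fos).

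IR against WI had 6 of 10 genes at least 2-fold higher (Fosl2, Jun, Junb, Jund, Atf3 and Ier3) against a background of 5.78%, and 0 of 10 at least 2-fold lower against 1.43%. Bounds were apart and higher for 5 of 10, the same genes less Jun, with a background of 3.22%, and apart and lower for 0 of 10, with a background of 0.398%. The median change was 1.42, beside 0.03 for all genes, and all 10 values were above 0, as were 5660 of all 10792 genes. With a common sum per library, the median of all genes moved to -0.45 and that of the 10 genes to 0.98, so their distance from all genes was 1.43 in place of 1.39. On that scale bounds were apart for Atf3 and Ier3 only, and the changes of Fos and Egr1 were below 0.

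IR against Sham, which shares its libraries with both other comparisons, had 5 of 10 genes at least 2-fold higher (Fos, Junb, Jund, Atf3 and Ier3), where 5.35% of all genes passed, and 0 of 10 at least 2-fold lower, where 2.15% passed. Bounds were apart and higher for Fos, Junb, Atf3 and Ier3 (background 2.70%) and apart and lower for 0 of 10 (background 1.12%). The median change was 1.24, beside 0.05 for all genes. Bounds for these 4 genes were also apart with a common sum per library.

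**Figure D4:**
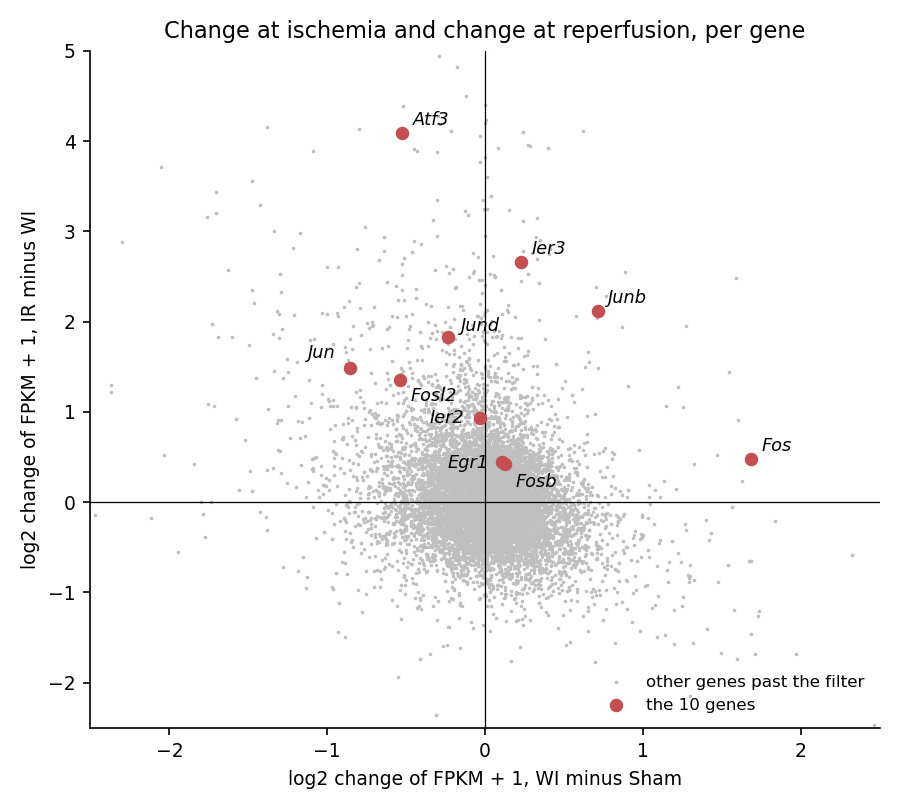
Change of FPKM + 1 from Sham to WI (horizontal) and from WI to IR (vertical), both in log2 units, for the 10 genes (red, named) and the other genes past the filter (grey), of which 41 of 10792 lie outside the axes. The WI library enters both axes, Fos lies to the right at 1.69 and 0.47, and Atf3 lies at the top at -0.52 and 4.09.

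The genes nearest to Fos, Jun and Egr1 in that plane were sought among 6621 other genes whose FPKM reached 5 in some library, by Euclidean distance over both changes and so over 3 libraries. Nearest to Fos were Lcn2 (distance 0.23), Nudt7 (0.37) and Slc41a2 (0.44). Lcn2, which encodes lipocalin 2, had an FPKM of 121 in Sham, 335 in WI and 482 in IR. Nearest to Jun were Pim3 (0.05), Snhg1 (0.09) and Mnda (0.15), and Pim3, a serine/threonine kinase gene, had an FPKM of 95.2, 51.3 and 149.8. Nearest to Egr1 were Ccs, Exosc3 and Pcdh1, at 0.0101 or less. The distance from Fos to its nearest gene was larger than those of Jun and Egr1, but Fos also ranked 15 among 10792 genes at WI against Sham. Few genes can lie near such a value. All these distances were smaller than the standard errors of the log2 FPKM ratios of Fos, Jun and Egr1 on these axes (0.478 or more). The order of the named genes is therefore not settled by these data.

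Related genes were described from lists of other AP-1 and bZIP genes, other immediate early genes, upstream kinases and factors, regulators of mRNA and protein turnover, and known targets. Among 18 of 20 other AP-1 and bZIP genes that passed the filter, WI and Sham had bounds apart for 0, beside 0.195% of all genes higher and 0.482% lower. From WI to IR, bounds were apart and higher for Maff, Mafk and Batf, beside 3.22% of all genes, and apart and lower for 0, beside 0.398%. Maff and Mafk encode small MAF proteins, which lack an activation domain. Maff had an FPKM of 18.6 in Sham, 10.3 in WI and 59.9 in IR, an IR to WI ratio of 5.81 (2.99 to 11.3), and Mafk had 5.73, 5.05 and 19.1. Batf, whose protein pairs with JUN proteins, went with a low FPKM of 0.621, 0.443 and 3.40 and passed the filter through IR alone. Fosl1, the remaining FOS gene, did not pass the filter and was listed at 0 in Sham, 0.0181 in WI and 0.811 in IR.

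Of the 28 other immediate early genes, 21 passed the filter. In WI, 16 of these 21 were below Sham and their median change was -0.32, beside 0.02 for all genes. Among all 10792 genes past the filter, 5671 were above Sham in WI. Gadd45b, a stress sensor that binds MAP kinase kinases, was the only one with bounds apart (0.482% of all genes were apart and lower), with an FPKM of 12.6 in Sham (6.39 to 18.9) and 3.90 in WI (1.59 to 6.20). In IR, 8 of 21 were higher than in WI with bounds apart, beside 3.22% of all genes, and 0 were lower, beside 0.398%. The median change was 1.13, against 0.03 for all genes. Gadd45b then had an FPKM of 56.6, an IR to WI ratio of 14.5 (6.93 to 30.3). Tiparp, an ADP-ribosyltransferase gene, had an IR to WI ratio of 8.68 (4.35 to 17.3). Ppp1r15a, which encodes the phosphatase subunit GADD34, had a ratio of 6.11 (3.14 to 11.9), and Csrnp1 had 5.42 (2.78 to 10.6). Egr2, Egr3 and Egr4, the paralogs of Egr1, did not reach an FPKM of 1 in any library.

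The genes upstream of the members are kinases that relay stimuli and factors that act at their promoters. Of 28 kinases and SRF/TCF factors, 25 passed the filter. Between WI and Sham, bounds were apart for 0 of the 25, beside 0.195% of all genes higher and 0.482% lower, so the count is near those shares. Between IR and WI, bounds were apart for Map3k8 and Mapkapk2, both higher, where 3.22% of all genes were apart and higher and 0.398% lower. Mapkapk2, a kinase downstream of p38 that stabilizes short-lived mRNAs, had an FPKM of 28.7 in Sham, 21.5 in WI and 66.0 in IR, an IR to WI ratio of 3.06 (1.57 to 5.96). Map3k8 had 1.38, 0.715 and 3.82. The median change of the list was -0.10 at WI against Sham and 0.07 at IR against WI. Among 13 genes of turnover and corepression, 0 had bounds apart and 0 were past 2-fold in any of the comparisons, beside shares of 0.195% to 5.78% over all genes. The median of these genes was -0.08 from WI to IR. Zfp36, which encodes an mRNA-destabilizing protein, had an FPKM of 83.9, 93.1 and 154 with overlapping bounds.

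Among 15 of 20 AP-1 and EGR1 target genes past the filter, bounds were apart for 0 at WI against Sham, for 4 at IR against WI and for 5 at IR against Sham, all of them higher in IR. Over all genes, 3.22% were apart and higher at IR against WI, 2.70% at IR against Sham and 0.195% at WI against Sham. At WI against Sham, 0.482% were apart and lower. The called genes Plaur and Sphk1 passed the filter through IR alone, which favors a call of higher in IR. Plaur, the urokinase receptor gene, had an FPKM of 0.441 in Sham, 0.441 in WI and 10.1 in IR, an IR to WI ratio of 23.0 (8.82 to 59.9). Ccl2, a chemokine gene, had an FPKM of 1.08, 2.55 and 16.3, and Sphk1, a sphingosine kinase gene, had 0.405, 0.173 and 3.21. Cxcl10, a chemokine gene, was apart between IR and Sham only, with 3.76, 10.4 and 22.6. The cyclin gene Ccnd1 had 14.8, 29.8 and 18.6 with overlapping bounds, and Il6 was listed at 0 in Sham, 0.0373 in WI and 0.152 in IR.

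**Figure D5:**
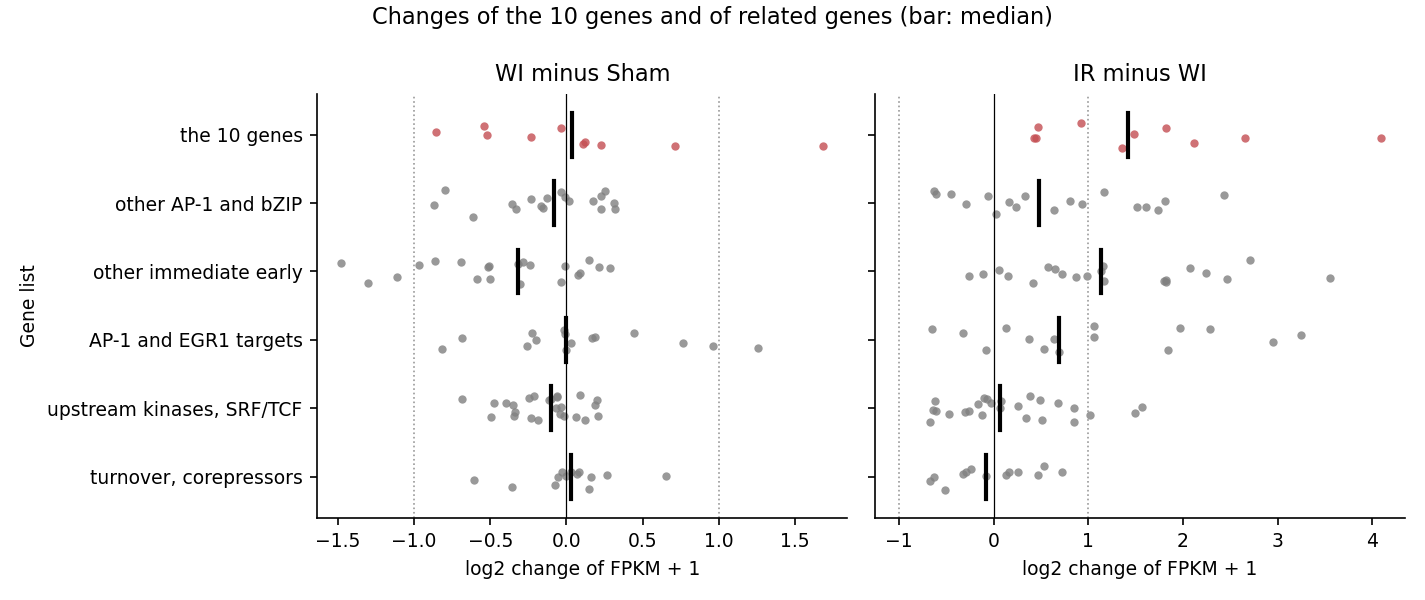
Change of FPKM + 1 in log2 units from Sham to WI (left) and from WI to IR (right) for the 10 genes (red) and for related genes past the filter (grey), 1 point per gene with the median of each list as a black bar. From WI to IR the median is 1.42 for the 10 genes, 1.13 for other immediate early genes and -0.08 for turnover and corepression, and the dotted lines mark 2-fold.

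Markers of other liver cells moved between the same libraries. Of 9 neutrophil markers found, 7 passed the filter and all 7 were higher in IR than in WI with bounds apart, beside 3.22% of all genes. Some of the 7 passed the filter through IR alone, which favors that call. Summed FPKM of all 9 markers was 26.0 in Sham, 19.6 in WI and 471 in IR. Most of the IR sum came from S100a8 (212) and S100a9 (204). Camp, which did not pass the filter, had an FPKM of 0.152 in Sham, 0.0673 in WI and 0.0953 in IR. Of the 9 markers, 0 were below an FPKM of 0.1 in Sham, 3 in WI and 1 in IR. The 10 Kupffer cell markers summed to 854 in Sham, 489 in WI and 345 in IR, with 10 of 10 below Sham in WI. Among all 10792 genes, 5671 were above Sham in WI. The 8 sinusoidal endothelial markers summed to 173, 129 and 137, and the 8 stellate cell markers to 161, 115 and 120. Summed FPKM of 8 lymphocyte markers was 13.3, 10.2 and 5.89, and that of 4 cholangiocyte markers 2.48, 3.29 and 6.92. Hepatocyte markers were at high levels in all libraries, summing to 19680, 14723 and 19764, although Alb was listed at 0 in each. In bulk tissue fewer cells of a type and less RNA per cell cannot be told apart, and the part of these markers in the levels of the 10 genes was not tested. In WI every one of these sums except that of the cholangiocyte markers was below Sham. In IR the neutrophil, endothelial, stellate, cholangiocyte and hepatocyte sums were above WI, and the Kupffer cell and lymphocyte sums were below it. These sums have no bounds and lean on the markers with the highest levels. Of the 8 endothelial markers, 3 were above WI in IR, with a median change of -0.10, and Lyve1 went from 2.73 to 33.4. Of the 8 stellate cell markers, 6 were above WI, with a median change of 0.04. Among all 10792 genes, 5660 were above WI in IR.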

How the data were processed

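Liver mRNA was profiled in 3 libraries, 1 per group (Sham, WI, IR). Per the labels and the methods of the study, the authors mapped read pairs to mm10 with TopHat2 2.0.9 and obtained FPKM values with 95% bounds per gene from Cuffdiff of Cufflinks 2.0.2, and these deposited FPKM values were used as they stand. The tables hold no counts. Gene starts were shifted by 1 so that coordinates count from 1.

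The 10 genes and the related lists were chosen with earlier results of these data known. Changes are log2 differences of FPKM + 1 over 10792 genes whose FPKM reached 1 in some library. The SE of a log2 FPKM ratio was taken from the upper bounds, read as 2 SD above the FPKM, since a gene with 1 fragment has a half-width near 2 times its value, and intervals are 1.96 SE wide on each side. Calls were a 2-fold change of FPKM + 1 or bounds that do not overlap. All members were named. From each other list, at most 4 genes per comparison were named by the size of change among those past both rules, 1 target gene that met the rule is not reported here, and the genes named beyond it (Fosl1, Egr2 to Egr4, Zfp36, Ccnd1, Il6, Flot1 and Alb) were chosen after their values were seen. The searches for TGACG and TATAAA were added after the windows were seen, and protein sequences were not used here. For Fos, Jun and Egr1 the 3 nearest genes were named. Scripts were tested on simulated data. Alternatives were other pseudocounts, filters, fold thresholds and scalings. Python 3.11.15, numpy 2.4.6, pandas 2.3.3 and matplotlib 3.10.9 were used.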

Additional observations from a re-analysis of the deposited data

How the results depend on the processing

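Most values describing the 10 genes kept their direction and size, but many changes that involve IR depended on the scaling of the libraries. Among counts and medians recomputed under alternative settings, 104 stayed within 1.5 times of the reported count or within the model error of the reported median and 7 did not. Part of the 104 could not move. With no filter, or with an FPKM of at least 1 required in all libraries, the same 10 members were kept. Among changes of single members, 108 stayed within their model error and 12 moved, all 12 with a common sum per library. These 12 were the changes of Fos, Jun, Junb, Jund, Egr1 and Ier2 at both IR against WI and IR against Sham. On that scale Fosb, Fosl2, Atf3 and Ier3 stayed within their model error in both comparisons. A fold threshold of 1.5 gave 2 members higher and 1 lower at WI against Sham and 8 higher at IR against Sham. A fold threshold of 4 gave 0 members higher at WI against Sham and 3 at IR against WI. With a common sum per library, which lowers all IR values because the summed FPKM was 712423 in IR and 475754 in Sham, the median change at IR against Sham was 0.69 and members with bounds apart and higher at IR against WI numbered 2. The direction of the changes of Fos and Egr1 at IR against WI and of Egr1 at IR against Sham turned on that scale. There the median of all genes was -0.45 in both comparisons. The median of the 10 genes at WI against Sham, 0.04, was -0.03 when an FPKM of 5 was required. No paired analysis was possible because each group holds 1 library, and leaving out a replicate was not possible for the same reason. The bounds cover the error of the Cuffdiff model and no measured variation between mice of a group, so how far these levels would differ in other mice is not known from these data.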
